A study of Rattus norvegicus with 6 samples.

Results

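Eph receptors and their membrane-bound ligands, the ephrins, were followed through the nuclei of the adult rat nucleus accumbens shell. A list of 10 genes was read: 8 receptors (Epha3, Epha4, Epha5, Epha6, Epha7, Epha10, Ephb1 and Ephb2) and 2 ligands (Efna5 and Efnb3). They stand among 22 genes of the family and 32883 features in the count matrices. Of the 10, 9 were found by their symbol. Epha6 is listed in the matrices as AABR07033882.1, which RefSeq gives as a synonym of Epha6, and was read from that feature (ENSRNOG00000029184). The 10 genes together held 547451 unique molecular identifiers (UMIs, each standing for 1 captured RNA molecule) of the 186807902 in the nuclei kept.

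The study isolated nuclei from frozen shell tissue of Long-Evans rats aged 90 to 100 days, with no treatment named in the labels, and compared the sexes. Each of 3 male and 3 female libraries held nuclei from 50 mg of tissue pooled from 4 animals of 1 sex, so a library is a pool of animals. In comparisons between libraries, such as that of the sexes, p-values measure the spread between pools. Comparisons between classes of nuclei take out each library's own level, and their p-values measure the spread that is left between class sums. Slices were 200 µm thick, and the protocol describes punches of both shell and core, while every sample here is labelled shell. RNA was counted at its 3′ end, so levels are compared within a gene and not between genes.

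Eph receptors form the largest family of receptor tyrosine kinases. A-type receptors bind mainly the lipid-anchored ephrin-A ligands and B-type receptors the transmembrane ephrin-B ligands, with Epha4 able to bind both. Because ligand and receptor both sit in membranes, signals pass where cells touch, forward into the cell with the receptor and in reverse into the cell with the ephrin. The family is best known for guiding axons and sorting cells in development, and in the adult brain for shaping dendritic spines, synapses and the contacts between neurons and glia. In the rodent striatum, Epha4 and Efna5 are known from work on the compartments of the developing tissue.

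The nuclei were sorted into classes by their marker genes, and none of the 22 family genes was used to form the clusters they are described in. Of 41974 barcodes, 34218 nuclei passed the filters. Medium spiny neurons (MSNs), the projection neurons of the striatum, were named D1 or D2 MSN-like by dopamine receptor and neuropeptide markers. The other classes in the comparisons were eccentric MSN-like, Drd3 granule-like, Sst/Npy interneuron-like, astrocyte-like, oligodendrocyte-like and oligodendrocyte precursor (OPC)-like nuclei. A further 6 neuronal clusters had no name from the marker lists and are called by number: cluster 4 (leading genes Bnc2, Reln and Ebf1), cluster 8 (Chst9, Col14a1 and Grm8), cluster 9 (Chrm5, Atp1a4 and Ebf1), cluster 10 (Sema3c, Lypd6b and Lhx8), cluster 14 (Il1rapl2, Egfr and Kcnip1) and cluster 20 (Nts, Fosl2 and Nr4a3). This gave 14 classes, 11 neuronal and 3 glial, with 24580 nuclei. Levels are in CPM, a gene's UMIs in a class and library scaled to the total UMIs of that class and library. The D2 class held 835 CPM of Drd2 and 2.58 CPM of Drd1. The D1 class held 22.4 CPM of Drd1 and 21.7 CPM of Drd2, so its name rests on Drd1, Pdyn, Tac1 and Isl1 being raised over the other clusters rather than on an absence of Drd2, and Drd3 is among its leading genes.

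The stretch before the start of a gene is shown for 3 receptors, chosen after their class levels were seen. Among the classes in the comparisons, Epha3 was highest in Drd3 granule-like nuclei and Ephb2 in OPC-like nuclei. Ephb1 was high in both D1 MSN-like and oligodendrocyte-like nuclei. Each sequence is the 250 bases upstream of the RefSeq start in build GRCr8, 5′ to 3′ on the gene's strand, at chr11:14920426-14920675 (minus strand) for Epha3, chr8:111823760-111824009 (minus strand) for Ephb1 and chr5:154360425-154360674 (minus strand) for Ephb2. Capitals mark a CCAAT box (CCAAT or its complement ATTGG) or a GC box (GGGCGG or CCGCCC).
Epha3: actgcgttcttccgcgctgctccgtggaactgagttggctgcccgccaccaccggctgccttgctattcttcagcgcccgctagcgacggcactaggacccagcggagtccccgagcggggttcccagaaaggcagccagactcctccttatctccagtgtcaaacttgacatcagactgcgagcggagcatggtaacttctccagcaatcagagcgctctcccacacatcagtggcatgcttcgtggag
Ephb1: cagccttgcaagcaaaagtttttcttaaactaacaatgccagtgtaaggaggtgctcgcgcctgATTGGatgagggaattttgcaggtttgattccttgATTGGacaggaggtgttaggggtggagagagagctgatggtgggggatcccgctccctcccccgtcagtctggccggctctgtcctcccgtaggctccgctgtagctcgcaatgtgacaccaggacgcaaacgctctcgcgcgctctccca
Ephb2: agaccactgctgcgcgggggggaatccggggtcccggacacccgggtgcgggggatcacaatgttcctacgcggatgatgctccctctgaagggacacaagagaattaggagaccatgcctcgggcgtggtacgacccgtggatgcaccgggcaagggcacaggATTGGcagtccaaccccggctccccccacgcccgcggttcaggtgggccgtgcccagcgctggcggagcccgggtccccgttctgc
The letters CCAAT, on either strand, occurred at 2 places before Ephb1 and at 1 before Ephb2. They were not in the window before Epha3, and the GC box was in none of the 3 windows. Over 33469 RefSeq promoters of the same length, 34% held CCAAT and 30.5% a GC box. Of the other motifs searched on both strands, the TATA box (TATAAA), the E-box (CACGTG) and the AP-1 motif (TGANTCA) were in none of the 3 windows, and the core of the CRE motif (TGACG) was at 1 place before Ephb1, against 12.9%, 5.59%, 6.34% and 18.2% of promoters. The windows held 17 CG dinucleotides for Epha3, 13 for Ephb1 and 22 for Ephb2, against a median of 5 over all promoters. RefSeq gave such a window for 8 of the 10 genes. Epha4 and Efnb3 are named only.

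Library facts that touch the levels were these. Kept nuclei ran from 2762 to 14291 per library and kept UMIs from 10516479 to 77238702. The labels of male pool 1 and female pool 3 use another wording for the library source than the other 4, and the submitters do not say what it stands for; these are called label set A and the other 4 label set B. Libraries correlated at 0.989 within set A and 0.954 to 0.98 within set B, and at 0.888 to 0.943 across the sets (Pearson's r of log2 CPM over genes, a description). Barcodes over the mitochondrial limit were 1.55% and 2.28% in set A and 13.1% to 40.7% in set B. Any pair of libraries shared 0.0757% to 0.645% of the smaller one's barcodes. The Y-linked Kdm5d stood at 97.9 to 105 CPM in the male pools and 1.14 to 2.53 CPM in the female pools, as labelled. Pde10a, an MSN gene, reached 3.23% of its D1 and D2 MSN-like level in microglia-like nuclei, a class that should lack it.

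**Figure D1:**
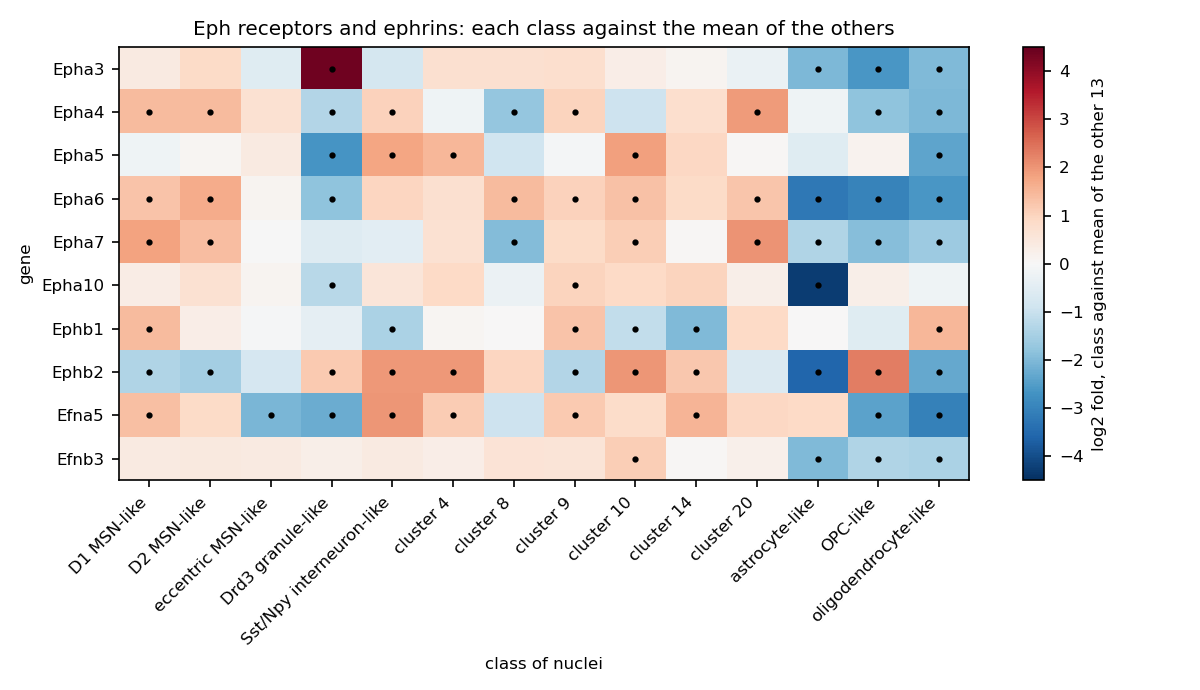
Colour gives the log2 fold change of the 10 genes (rows) in each of the 14 classes (columns) against the mean of the other 13. A dot marks the called pairs, 69 of 140, beside 23679 of 165312 pairs over all genes. Epha3 stands out in Drd3 granule-like nuclei, Ephb2 in OPC-like nuclei, and most genes are low in the glial columns, where Ephb1 is high in oligodendrocyte-like nuclei.

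Among the A-type receptors, Epha3, which binds ephrin-A ligands and is known from retinal and callosal axon guidance, had the narrowest pattern. In Drd3 granule-like nuclei it reached 1853 CPM in the lowest library, 2675 CPM in the median and 3271 CPM in the highest. The next of the 14 classes, cluster 4, had a mean of 261 ± 47.3 CPM (SD, n = 6). In all 6 libraries the Drd3 granule-like level was above that of cluster 4, with no overlap. Glutamatergic-like nuclei, left out of the comparisons, held 469 CPM in female pool 3 and 587 CPM in male pool 1. Against the mean of the other 13 classes the log2 difference was 4.37 (SE 0.112, adjusted p = 1.7e-44). Here and below, adjusted p-values come from edgeR's quasi-likelihood test on UMIs summed per library and class, with Benjamini-Hochberg adjustment over all genes in the fit. A class contrast was called at an adjusted p under 0.05 and at least 2-fold, a rule set because many genes differ between classes. Epha3 was also among the 10 leading genes of that cluster although it had been kept out of the clustering. The lowest mean was 28.5 ± 20.1 CPM in OPC-like nuclei, where 1 library had no UMI.

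Epha5, an ephrin-A receptor known from limbic and retinotectal mapping, was arranged differently. Among the classes in the comparisons, it was highest in cluster 10 (lowest, median and highest library 914, 1126 and 1271 CPM). Sst/Npy interneuron-like nuclei followed with 767, 1099 and 1278 CPM. Those classes overlapped library by library, so their order is not resolved. Cluster 4 followed with a mean of 860 ± 173 CPM, and all 3 classes were called higher than the rest, with log2 differences of 1.86, 1.78 and 1.5 (adjusted p = 3.52e-21, 5.23e-17 and 2.91e-16 by edgeR). In Drd3 granule-like nuclei, where Epha3 peaked, Epha5 was lowest, with libraries from 9.56 to 156 CPM and a median of 35.8 CPM. Female pool 3 alone held the 156 CPM, and the next library had 52.2 CPM. The called difference of -2.64 in those nuclei became -3.34 without that library.

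Epha6, a receptor expressed mainly in brain, was spread over neurons. D2 MSN-like nuclei ranked first with 1398, 1517 and 1804 CPM as the lowest, median and highest library, above the next class in all 6 libraries although the ranges overlapped. Clusters 10 and 8 followed at 1396 ± 176 and 1370 ± 185 CPM, and D1 MSN-like nuclei at 1212 ± 204 CPM. It was called higher in 6 classes: D2 and D1 MSN-like nuclei and clusters 8, 9, 10 and 20. Low levels were found in Drd3 granule-like nuclei (174 ± 73.4 CPM) and in astrocyte-like, OPC-like and oligodendrocyte-like nuclei (69.1, 82.7 and 115 CPM on average). All 4 of those classes were called lower. In the glial classes and in microglia-like nuclei, pooled Epha6 stood at 6.35% to 8.33% of its D1 and D2 MSN-like level, beside 2.96% to 11.6% for Pde10a, and the part of neuronal RNA in these levels was not tested.

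Epha4, which binds both ligand types, and Epha7, an ephrin-A receptor with known short forms, shared part of their maps. Epha4 averaged 534 ± 103 CPM in cluster 20, 423 ± 43.3 CPM in D1 MSN-like nuclei and 422 ± 53.9 CPM in D2 MSN-like nuclei, which overlapped. Epha7 averaged 410.5 ± 113, 382 ± 90.4 and 293 ± 70.0 CPM in the same 3 classes. Both were called higher in those 3 classes, and both were called lower in cluster 8, OPC-like and oligodendrocyte-like nuclei. In cluster 8, Epha4 averaged 53.3 ± 24.3 CPM and Epha7 32.3 ± 28.2 CPM, although Epha6 was high there. Elsewhere their calls differed. Epha4 was called higher in Sst/Npy interneuron-like nuclei and cluster 9 and lower in Drd3 granule-like nuclei, where Epha7 was not called. Epha7 was called higher in cluster 10 (264 ± 85.5 CPM, where Epha4 averaged 102 ± 22.7 CPM) and lower in astrocyte-like nuclei, where Epha4 was not called. Over the 14 class means Epha4 and Epha7 correlated at 0.798 (Pearson's r of log2 values, a description over classes from the same 6 libraries).

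Epha10, a receptor without an active kinase, ranged from 24.9 CPM in Drd3 granule-like nuclei, where it was called lower, to 111 CPM in cluster 9 among the neuronal classes. Its highest mean was 111 ± 40.3 CPM in cluster 9, and clusters 4, 14 and 10 followed at 98.1, 97.1 and 95.2 CPM with overlapping libraries. Only cluster 9 was called higher, at a log2 difference of 1.01 (adjusted p = 1.81e-12 by edgeR) that fell under 2-fold when any 1 of 4 libraries was left out (0.911 to 0.981). Cluster 9 also separated the label sets, with 59.98 and 62.45 CPM in set A and 118 to 153 CPM in set B. The low end was clearer. Astrocyte-like nuclei held 1.35 to 5.28 CPM, and the log2 difference was -4.26 (SE 0.27, adjusted p = 8.93e-25 by edgeR), or -4.9 without female pool 3.

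**Figure D2:**
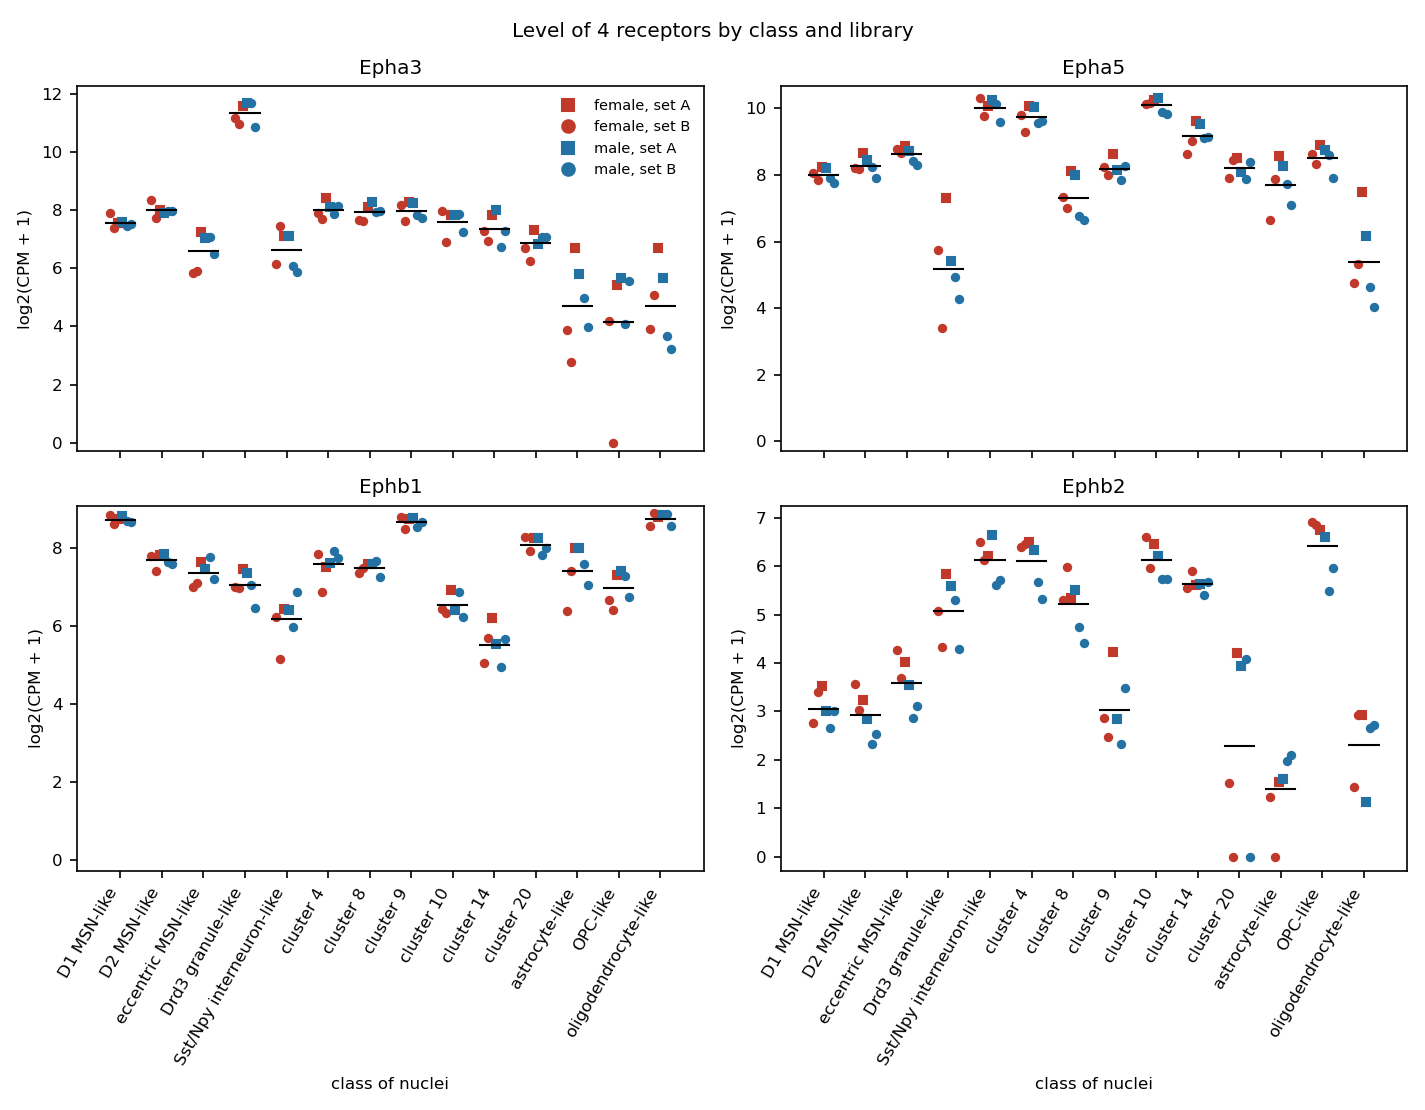
Level of Epha3, Epha5, Ephb1 and Ephb2 as log2(CPM + 1) in the 14 classes, with 1 point per library (red female, blue male, squares label set A, circles set B) and a line at the mean of the log2 values. The Drd3 granule-like points for Epha3 lie between 1853 and 3271 CPM, clear of every other class.

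Of the B-type receptors, Ephb1, known from guidance of axons at the optic chiasm in mice, was shared between a neuron and a glial class. Oligodendrocyte-like nuclei held 380.5, 451.5 and 474 CPM as the lowest, median and highest library, and D1 MSN-like nuclei held 391, 420.4 and 459 CPM. Cluster 9 came next at 357, 419 and 445 CPM, and these 3 classes overlapped one another. The fourth, cluster 20, averaged 273 ± 38.4 CPM and lay below cluster 9 in all 6 libraries with no overlap. All 3 leading classes were called higher, with log2 differences of 1.49, 1.44 and 1.29 (adjusted p = 6.47e-28, 1.4e-29 and 1.73e-23 by edgeR). Sst/Npy interneuron-like nuclei and clusters 10 and 14 were called lower, down to 46.7 ± 15.5 CPM in cluster 14.

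Ephb2, a receptor that interacts with NMDA receptors at synapses, ran the other way. OPC-like nuclei had 43.8, 102 and 119 CPM as the lowest, median and highest library. Sst/Npy interneuron-like nuclei and clusters 4 and 10 followed at 71.7, 71.2 and 70.6 CPM, and these libraries overlapped with those of OPC-like nuclei. It was called higher in those 4 classes, in cluster 14 and in Drd3 granule-like nuclei. In D1 and D2 MSN-like nuclei it averaged 7.54 ± 2.07 and 6.914 ± 2.499 CPM, and in astrocyte-like nuclei 1.92 ± 1.18 CPM with no UMI in 1 library. Among all pairs of listed genes over the 14 class means, Ephb1 and Ephb2 had the lowest correlation, -0.681 (a description).

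Both ligands had their own maxima. Efna5, the ephrin-A5 ligand of A-type receptors, reached 180.5, 260.4 and 339.7 CPM in Sst/Npy interneuron-like nuclei as the lowest, median and highest library. Cluster 14 followed at 216 ± 37.0 CPM and lay above D1 MSN-like nuclei (152 ± 9.73 CPM) in all 6 libraries with no overlap. Efna5 was called lower in eccentric MSN-like nuclei, the only listed gene called there, at 13.96 ± 7.196 CPM (log2 difference -2.06, SE 0.202, adjusted p = 7.19e-14 by edgeR). It was also low in Drd3 granule-like, OPC-like and oligodendrocyte-like nuclei, at means of 14.2, 12.3 and 6.37 CPM. Astrocyte-like nuclei, at 117 ± 38.1 CPM, did not share that low level. Efnb3, the ephrin-B3 ligand known as a midline barrier for spinal axons in mice, was highest in cluster 10 at 125.5 ± 54.1 CPM and was called higher only there (log2 difference 1.11, adjusted p = 6.63e-22 by edgeR). In the other neuronal classes its mean lay between 44.5 and 83.7 CPM, and in the 3 glial classes between 11.5 and 20.3 CPM.

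Counted over classes, 69 of the 140 pairs of gene and class were called by edgeR and 73 by DESeq2. Over all genes, 23679 of 165312 such pairs were called by edgeR and 24294 by DESeq2. In D1 MSN-like nuclei 6 of the 10 genes were called (Epha7, Ephb1, Epha4, Efna5 and Epha6 higher, Ephb2 lower) where 10.6% of all genes were. D2 MSN-like nuclei had 4 called (Epha6, Epha4 and Epha7 higher, Ephb2 lower) against 11.2% of all genes. In Drd3 granule-like nuclei 7 were called (Epha3 and Ephb2 higher, Epha5, Efna5, Epha6, Epha4 and Epha10 lower) against 13%, and in Sst/Npy interneuron-like nuclei 5 (Efna5, Ephb2, Epha5 and Epha4 higher, Ephb1 lower) against 10.2%. The D1 and D2 MSN-like classes thus share 3 higher A-type receptors and the low Ephb2, and the interneuron-like class has Ephb2 high and Ephb1 low.

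Among the numbered clusters, cluster 9 had 6 called (Ephb1, Efna5, Epha6, Epha4 and Epha10 higher, Ephb2 lower) against 9.97% of all genes, and cluster 10 also had 6 (Ephb2, Epha5, Epha6, Epha7 and Efnb3 higher, Ephb1 lower) against 12.3%. Clusters 4, 8, 14 and 20 had 3 each, against 7.41%, 8.03%, 9.83% and 13.2% of all genes. In cluster 4 these were Ephb2, Epha5 and Efna5, all higher, and in cluster 20 Epha7, Epha4 and Epha6, all higher. In cluster 8 Epha6 was higher and Epha7 and Epha4 lower, and in cluster 14 Efna5 and Ephb2 were higher and Ephb1 lower. Eccentric MSN-like nuclei had 1 (Efna5) against 9.87%. Without 1 library, the calls of Epha4 in Sst/Npy interneuron-like nuclei (log2 0.99 without female pool 1), Epha7 in cluster 10 (0.94 without female pool 1), Epha4 in cluster 9 (0.971 and 0.998 without female pool 2 and male pool 1) and Epha6 in cluster 9 (0.998 and 0.994 without female pools 1 and 2) lay just under 2-fold.

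Glia were mostly on the low side. Oligodendrocyte-like nuclei had 9 genes called against 33.8% of all genes, 8 of them lower and Ephb1 alone higher. OPC-like nuclei had 7 called against 20.4%, of which Ephb2 was higher and Epha6, Epha3, Efna5, Epha7, Epha4 and Efnb3 lower. Astrocyte-like nuclei had 6 called, all lower, against 30.7%. The oligodendrocyte-like values of Epha3, Epha7 and Efna5 moved by more than 1.5 times without female pool 3, from log2 -1.99 to -2.60, from -1.64 to -2.26 and from -3.03 to -4.14.

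Set as neurons against glia, with each class weighted alike, 9 of the 10 genes were called higher in the 11 neuronal classes where 15.5% of all genes were, and none of the 10 was called lower where 12% of all genes were. The 10 genes had a median log2 difference of 1.72, beside 0.00562 over all genes tested. Epha6 led with 1062 ± 169 CPM in neurons and 88.9 ± 48.0 CPM in glia (log2 3.49, SE 0.112, adjusted p = 2.51e-40 by edgeR, higher in 6 of 6 libraries). Epha3 followed at 2.60, Epha7 at 1.93, Efnb3 at 1.88, Efna5 at 1.79, Epha10 at 1.66, Epha4 at 1.58 and Epha5 at 1.08, which fell to 0.96 and out of the call without female pool 1. Ephb1, at -0.38 (SE 0.0696), stayed under 2-fold. Ephb2 was called at 1.41 on the fitted scale, which averages logs over classes, while its plain means were 34.4 CPM in neurons and 32.2 CPM in glia, because OPC-like nuclei hold much of it and the other glial classes almost none.

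Of the 12 other family genes, 5 had counts enough for that test. Epha8 and Efnb2 were called higher in neurons and Ephb3 and Efna1 lower. Ephb3 averaged 79.2 ± 23.8 CPM in astrocyte-like nuclei, above every other of the 14 classes in 6 of 6 libraries with no overlap. Microglia-like nuclei, left out of the comparisons, held 11.3 to 56.1 CPM of Ephb3. In female pool 1 they exceeded astrocyte-like nuclei (56.1 against 51.3 CPM). Ephb4 was highest in astrocyte-like nuclei too, at 16.9 ± 4.79 CPM. The ligands Efna1 and Efna2 were highest in oligodendrocyte-like nuclei at 20.01 ± 6.917 and 12.96 ± 1.453 CPM, with no overlap with the next class by mean. Efna1 was above every other class in 6 libraries and Efna2 in 5. In male pool 2, Sst/Npy interneuron-like nuclei held 14.35 CPM of Efna2 and oligodendrocyte-like nuclei 11.86 CPM. Efnb2, an ephrin-B ligand, was highest in cluster 20 (312 ± 112 CPM) and Epha8 in D1 MSN-like nuclei (23.9 ± 4.12 CPM).

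In a list of 26 signalling partners of Eph receptors, 7 of 24 tested were called higher in neurons, where 15.5% of all genes were. Another 3 were called lower, where 12% of all genes were. Tiam1 and Kalrn, which activate Rac downstream of B-type receptors, were higher by 2.66 and 1.93 on the log2 scale, and Ngef, the exchange factor ephexin bound by Epha4, by 1.98. Rgs3, whose long form binds ephrin-B tails, was lower by edgeR at -4.44, with 3.97 CPM in neurons and 76.9 CPM in glia, and the receptor phosphatase Ptprd was lower at -1.36. The median over the 24 was 0.177.

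**Figure D3:**
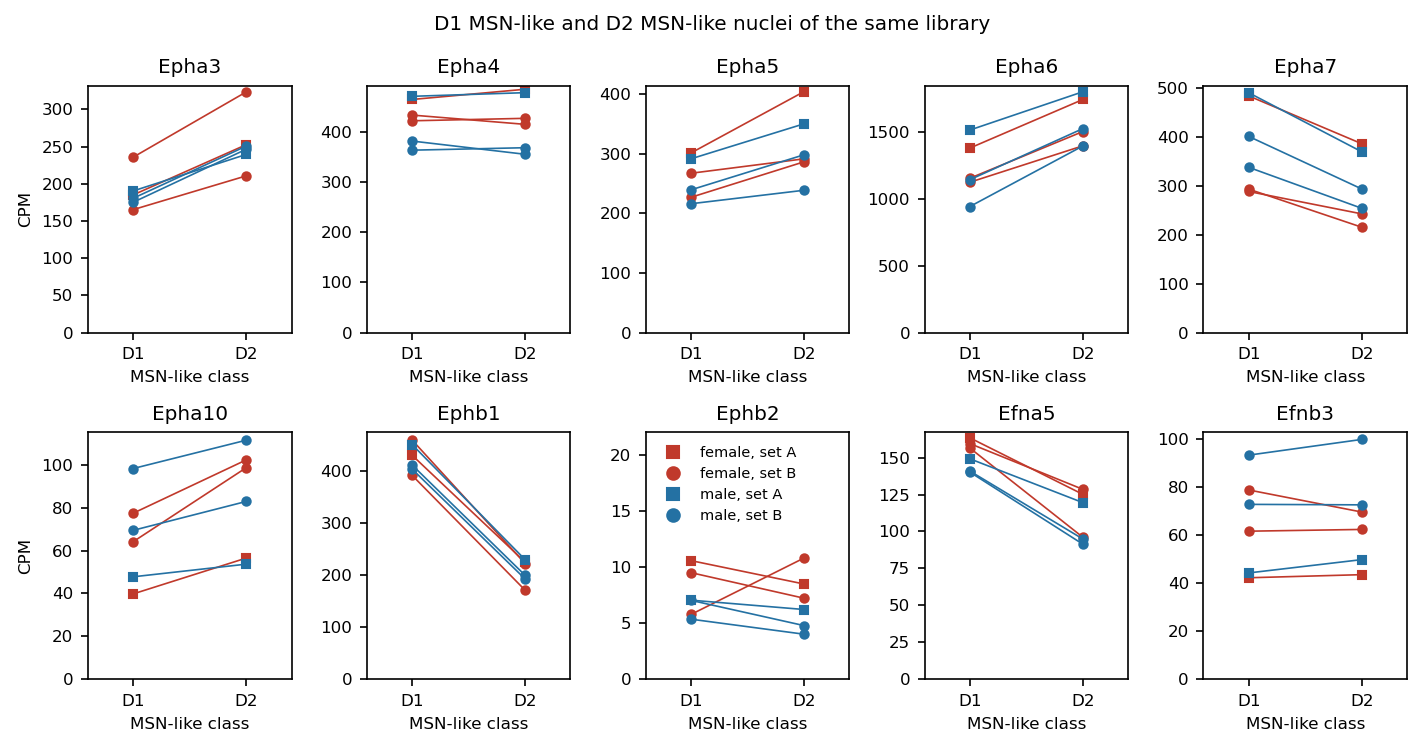
CPM of the 10 genes in D1 and D2 MSN-like nuclei, with lines joining the 2 values of each library (red female, blue male, squares label set A, circles set B). Ephb1 is higher in the D1 class in every library (424 against 206 CPM on average), and Epha4 and Efnb3 lie level.

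Both MSN-like classes come from the same 6 libraries, and the comparison between them paired the classes by library. At an adjusted p under 0.05, 3 of the 10 genes were higher in D1 MSN-like nuclei where 8.36% of all genes were, and 4 were lower where 8.27% were. Ephb1 had the largest difference: 391 to 459 CPM in the D1 class and 171 to 229 CPM in the D2 class. The groups did not overlap, and the log2 difference was 1.03 (SE 0.0355, adjusted p = 7.24e-32 by edgeR, higher in 6 of 6 libraries). It was the only listed gene of the 10 past 2-fold between these classes.

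Efna5 was higher in the D1 class by 0.44 (SE 0.0473, adjusted p = 4.89e-11 by edgeR), with 140.2 to 163 CPM against 91.4 to 128.5 CPM and no overlap. Epha7 was higher by 0.38 (SE 0.0341, adjusted p = 8.77e-14), with libraries that overlapped between classes but the same sign in 6 of 6. The 4 genes lower in the D1 class were all A-type receptors. Epha3 differed by -0.42 (adjusted p = 1.41e-14), Epha6 by -0.37 (1.53e-16), Epha10 by -0.35 (4.41e-06) and Epha5 by -0.29 (1.19e-08), each lower in 6 of 6 libraries. With the label set in place of the library as the block, Epha5 and Epha10 lost the call (adjusted p = 0.105 and 0.0755 by edgeR). Epha4 did not pass, at means of 423 and 422 CPM (log2 -0.00384, SE 0.0318, adjusted p = 0.966). Efnb3 (-0.04, SE 0.0602) and Ephb2 (0.14, SE 0.168) did not pass either. The median of the 10 was -0.0219 and that of all genes -0.0181.

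Outside the list, Ephb6 (log2 0.65) and Efnb2 (0.16) were higher in D1 and Efnb1 lower (-0.96), at 7.65, 249.6 and 2.01 CPM in the D1 class. Of 22 partners tested, 5 were higher in the D1 class (Ptprf by 0.57, Tiam1 by 0.28, Anks1a by 0.23, Fyn by 0.16 and Abl2 by 0.12), beside 8.36% of all genes higher and 8.27% lower. Another 7 were lower: Chn2, a Rac-inactivating chimaerin, at -0.54, Grip1, a PDZ scaffold of ephrin-B and B-type receptors, at -0.43, Ngef at -0.41, Vav3 at -0.31, Ptprd at -0.19, and Sipa1l1 and Rasa1 at -0.14. DESeq2 called 7 of the 10 listed genes, 10 of the 22 partners and 1087 of all genes, where edgeR called 1962 of 11801.

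**Figure D4:**
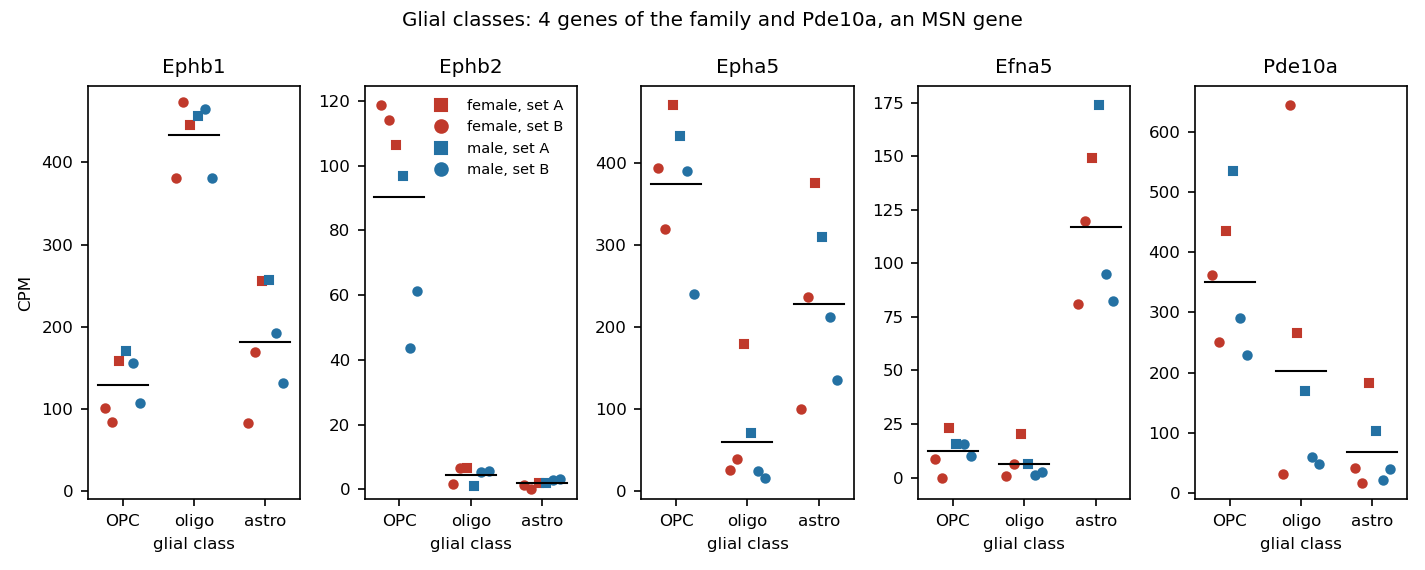
CPM of Ephb1, Ephb2, Epha5, Efna5 and the MSN gene Pde10a in OPC-like, oligodendrocyte-like and astrocyte-like nuclei, with 1 point per library (red female, blue male, squares label set A, circles set B) and a line at the mean. Ephb2 lies at 43.8 to 119 CPM in OPC-like nuclei and at 1.18 to 6.58 CPM in oligodendrocyte-like nuclei, and Ephb1 is the reverse.

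Oligodendrocytes arise from OPCs, and the 2 classes were compared within libraries. Ephb2 and Epha5 were called higher in OPC-like nuclei, where 16% of all genes were, and Ephb1 lower, where 10.5% were. Ephb2 went from 90.2 ± 30.6 CPM in OPC-like to 4.49 ± 2.41 CPM in oligodendrocyte-like nuclei, a log2 difference of 4.32 (SE 0.319, adjusted p = 5.27e-09 by edgeR, 20-fold). The libraries of the classes did not overlap. Epha5 went from 374 ± 83.0 to 59.0 ± 62.0 CPM (log2 2.74, SE 0.413, adjusted p = 0.00224), and female pool 3 alone held 179 CPM in oligodendrocyte-like nuclei, where the other 5 lay between 15.4 and 70.4 CPM. Ephb1 went the other way, from 129 ± 36.0 to 434 ± 42.1 CPM (log2 -1.86, SE 0.132, adjusted p = 1.07e-09), lower in 6 of 6 libraries with no overlap.

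The 6 remaining genes tested did not pass: Epha10 (0.45), Epha4 (0.23), Efnb3 (0.10), Epha7 (-0.25), Epha6 (-0.29) and Epha3 (-0.43 on the log2 scale), and Efna5 had too few counts to test. Pde10a in oligodendrocyte-like nuclei ran from 31.1 to 645 CPM over libraries, highest in female pool 2 and next in female pool 3, and in OPC-like nuclei from 229.5 to 536 CPM. The part of neuronal RNA in the low glial levels was not tested. Ephb1 in oligodendrocyte-like nuclei stood at 380.5 CPM in female pool 1, which held the least Pde10a, and at 474 CPM in female pool 2, which held the most. Between them, Ephb1 stood at 381 CPM in male pool 3 (47.5 CPM of Pde10a) and 465 CPM in male pool 2 (59.3 CPM). It stood at 457 CPM in male pool 1 (170 CPM of Pde10a) and 446 CPM in female pool 3 (266 CPM). Of 21 partners tested, Kalrn (2.58), Grip1 (2.33), Fyn (2.09) and Ptprf (1.35) were called higher in OPC-like nuclei, where 16% of all genes were. Ptprd (-3.37), Rgs3 (-2.87), Chn2 (-1.85) and the ephrin-cleaving protease Adam10 (-1.56) were called lower, where 10.5% of all genes were.

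A coarser clustering (Leiden resolution 0.5 in place of 1) put 468 nuclei of a mixed cluster, whose leading genes included Bcas1 and Enpp6 beside Pdgfra, into the OPC-like class, 34.3% of it. In that version of OPC-like against oligodendrocyte-like, Epha3 and Epha6 turned from uncalled values below 0 to called values above it (log2 2.13 and 1.67, adjusted p = 8.26e-09 and 0.00476 by edgeR), Epha4 was called at 1.33, and Ephb1 at -0.93 was under 2-fold. Ephb2 (3.71) and Epha5 (2.59) were called in both.

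Astrocyte-like nuclei formed 2 clusters, with 1819 nuclei in cluster 5 and 653 in cluster 17. These values are a description. Epha5 averaged 279.9 ± 107 CPM in cluster 5 and 71.4 ± 51.2 CPM in cluster 17, Ephb1 229 ± 72.9 and 37.7 ± 18.8 CPM, Epha4 198 ± 57.8 and 59.99 ± 26.36 CPM, and Efna5 140.1 ± 44.0 and 41.4 ± 22.5 CPM. Each of these 4 was higher in cluster 5 in every library. Epha6 was at 70.6 and 65.6 CPM and Epha7 at 51.0 and 52.8 CPM in the same clusters, so not all listed genes followed. The glutamate transporter gene Slc1a2 averaged 1780 CPM in cluster 5 and 868 CPM in cluster 17, and Aqp4 248 and 245 CPM.

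Shares of nuclei with a UMI were compared after thinning every nucleus to 1000 UMIs and leaving out shallower ones. Microglia-like nuclei (323 of 432 kept, median depth 1324.5 UMIs before thinning) serve as a class that should lack neuronal genes. Epha3 was seen in 85.1% of Drd3 granule-like nuclei (95% Wilson interval 83.0% to 87.0%, 93.9% unthinned, median depth 2749 UMIs) and 2.79% of microglia-like nuclei (1.47% to 5.21%). Ephb1 was seen in 34.1% of oligodendrocyte-like nuclei (32.5% to 35.8%, 49.1% unthinned, median depth 1711.5 UMIs), 33.7% of D1 MSN-like, 18.2% of D2 MSN-like and 5.88% of microglia-like nuclei (3.8% to 9%). Ephb2 was seen in 9.5% of OPC-like nuclei (7.70% to 11.7%, 19.3% unthinned, median depth 2235 UMIs) and 0.929% of microglia-like nuclei. Among the 14 classes, the class with the highest share was also that with the highest level for each of these 3 genes. The intervals cover counting error only.

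Other shares lay at or near that of the microglia-like class and are not read as a difference from it, and the part of free RNA in them was not tested. Epha6 was seen in 9.49% to 10.3% of the 3 glial classes against 11.5% of microglia-like nuclei, and in 73.0% of D2 MSN-like nuclei. Epha5 in Drd3 granule-like nuclei (6.76%) and oligodendrocyte-like nuclei (8.42%) stood beside 8.05% in microglia-like nuclei (0% to 16.5% over libraries), while OPC-like nuclei had 31.4%. Efna5 stood at 1.11% in oligodendrocyte-like, 1.43% in OPC-like and 1.71% in Drd3 granule-like nuclei beside 1.86%. Ephb2 in D1 and D2 MSN-like nuclei (0.741% and 0.744%) was likewise no higher than in microglia-like nuclei.

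Genes whose class means followed those of a listed gene most closely were ranked by Pearson's r of log2(CPM + 1) over the 14 classes, which share the same libraries. Named genes at the top were Wdr66 for Epha3 (0.938), Dgki for Epha4 (0.874), Zmat3 for Epha5 (0.952), Ankrd55 for Epha6 (0.962), Kcnq1 for Epha10 (0.935) and Akt1s1 for Ephb1 (0.877). For the ligand Efnb3 it was Ppp6r1 (0.968). For Epha7 and Ephb2 the top feature had no gene name, and the next were Adgrl2 (0.91) and Lmnb1 (0.948).

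The study was built to compare the sexes. The comparison used all nuclei of each library, with the label set as a term. Such a sum cannot tell a different share of a nucleus type from a different level per nucleus. None of the 10 genes passed (0 by edgeR, 1 at an unadjusted p under 0.05 and 0 by DESeq2), where 0.0433% of all genes did, 7 by edgeR and 13 by DESeq2. Ephb2 was the gene with the low unadjusted p: female pools had 34.5, 17.6 and 32.7 CPM and male pools 25.3, 14.2 and 17.7 CPM (log2 female minus male 0.66, SE 0.236, adjusted p = 0.634 by edgeR). Those groups overlap. Efna5 stood at 108, 109.9 and 113 CPM in the female pools and at 106, 97.3 and 89.8 CPM in the male pools, so all 3 female pools lay above all male pools, by 0.24 (SE 0.129, adjusted p = 0.634 by edgeR). For the other 8 the log2 difference was 0.27 for Epha5, 0.21 for Epha4, 0.15 for Epha6, 0.09 for Epha10, 0.03 for Ephb1, 0.02 for Epha7, -0.04 for Efnb3 and -0.06 for Epha3, with adjusted p-values from 0.659 to 0.977 by edgeR.

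**Figure D5:**
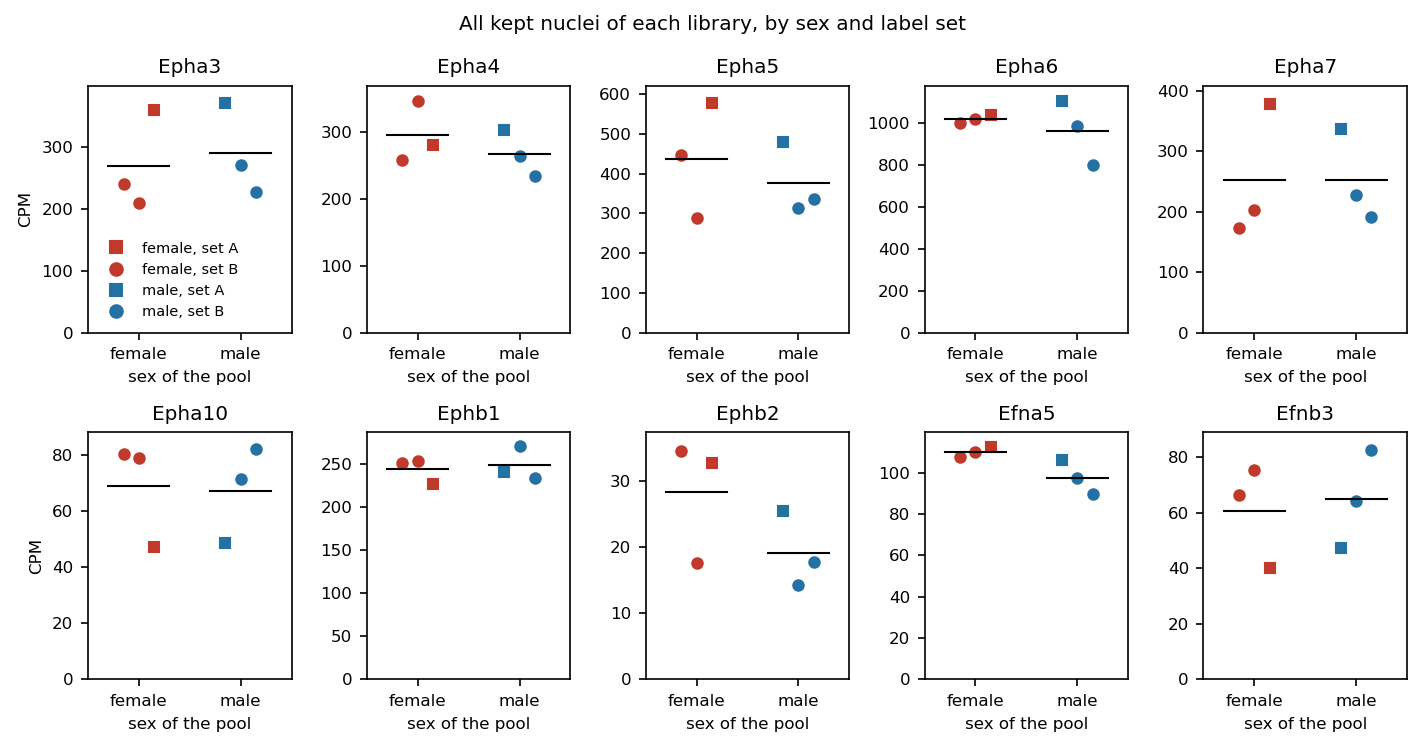
CPM of the 10 genes over all kept nuclei of each library, by sex of the pool, with squares for the 2 libraries of label set A, circles for the 4 of set B and a line at the mean of each sex. Epha3, Epha5 and Epha7 are higher and Epha10 and Efnb3 lower in the set A libraries of both sexes.

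Within classes, 129 of the 140 pairs of gene and class could be tested for sex. No pair passed (0 by edgeR, 14 at an unadjusted p under 0.05 and 0 by DESeq2), where 0.0817% of all gene and class pairs did (97 by edgeR, 6536 at an unadjusted p under 0.05 and 110 by DESeq2). Ephb2 was tested in 10 classes, and its female minus male difference was above 0 in each, from 0.07 to 0.80 on the log2 scale, with adjusted p-values from 0.49 to 0.999 by edgeR. The classes come from the same pools, so their signs are not separate replicates. Among the classes with too few Ephb2 UMIs to test, female means were below male means in astrocyte-like nuclei (1.09 and 2.75 CPM) and cluster 20 (6.47 and 10.1 CPM). They were above in oligodendrocyte-like nuclei (4.96 and 4.01 CPM) and cluster 9 (9.51 and 6.80 CPM). The absence of a call depends in 2 classes on single libraries. Without female pool 1, Epha4, Epha5, Epha6 and Epha7 passed in oligodendrocyte-like nuclei with log2 differences of 1.53, 1.23, 1.32 and 1.41 (adjusted p = 0.0309, 0.00898, 0.00131 and 0.0059 by edgeR). Epha5 passed in Drd3 granule-like nuclei without female pool 2 (1.66, adjusted p = 0.000551) or male pool 2 (1.67, adjusted p = 0.019). In oligodendrocyte-like nuclei the highest values of these genes were in female pools 2 or 3, which also held the most Pde10a there (645 and 266 CPM). In Drd3 granule-like nuclei Epha5 was highest in female pool 3 (156 CPM) and lowest in female pool 2 (9.56 CPM). Pde10a in those nuclei stood at 499.6 CPM in female pool 3 and 119 CPM in female pool 2. Male pool 1 held 474 CPM of Pde10a there and 41.9 CPM of Epha5. The part of neuronal RNA in these differences was not tested.

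Between the label sets, 5 of the 10 genes differed. Over all nuclei and with sex as a term, 3 of the 10 were higher in set A where 9.82% of all genes were, and 2 were lower where 21% were. Epha7 stood at 379 and 337 CPM in set A and at 174 to 227 CPM in set B (log2 0.89, SE 0.165, adjusted p = 0.00451 by edgeR). Epha3 stood at 360.1 and 372 against 209 to 271 CPM (0.67, adjusted p = 0.0117) and Epha5 at 577 and 479 against 289.6 to 448 CPM (0.65, adjusted p = 0.0244). Efnb3 (40.2 and 47.4 against 64.3 to 82.6 CPM, -0.67, adjusted p = 0.011) and Epha10 (47.2 and 48.5 against 71.1 to 81.9 CPM, -0.66, adjusted p = 0.00698) were lower. The 5 that did not pass were Ephb2 (0.55), Epha6 (0.22), Efna5 (0.16), Epha4 (0.14) and Ephb1 (-0.06), with adjusted p-values from 0.113 to 0.772 by edgeR.

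For all 5 genes the set A libraries lay outside the range of set B. These 5 were picked by the same comparison, so this adds no support to it, and the share over all genes was not counted. With 2 libraries in set A, leaving out female pool 3 left 0 calls and leaving out male pool 1 left 1 (Epha7), and without male pool 3 Epha5 missed the threshold (adjusted p = 0.0566 by edgeR). Glutamatergic-like nuclei, which are rich in 3 of these genes, numbered 1524 in female pool 3, 403 in male pool 1 and 2 in all of set B. In those 2 libraries they held 469 and 587 CPM of Epha3, 717 and 798 CPM of Epha7, and 824 and 848 CPM of Epha5. Within D1 MSN-like nuclei alone Epha3 averaged 188 CPM in set A and 189 CPM in set B. In the same nuclei Epha7 averaged 486 and 329.5 CPM, Epha5 296 and 237 CPM, Epha10 43.8 and 77.4 CPM, and Efnb3 43.1 and 76.5 CPM. In D2 MSN-like nuclei Epha3 averaged 246 and 258 CPM. Its mean was higher in set A in every other of the 14 classes, such as Drd3 granule-like nuclei (3169 and 2345 CPM) and cluster 14 (242 and 133 CPM). The label set cannot be told apart from whatever handling it stands for.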

How the data were processed

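Nuclei of the nucleus accumbens shell were profiled in 6 libraries, 3 of each sex. The deposited matrices hold UMI counts per gene and barcode, with no normalization. They were made with Cell Ranger 4.0.0, per the file headers, on build rn6, per the submitters' processing notes. Other settings are not given in the sources used here.

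Barcodes with at least 500 UMIs, 300 genes and under 5% mitochondrial UMIs were kept. Doublets were scored with Scrublet in scanpy 1.11.5. Its own threshold marked 0% of the largest library, so the highest-scoring share expected from loading (0.8% per 1000 barcodes) was removed instead. Nuclei were clustered (3000 variable genes, 30 principal components, Leiden resolution 1) and named from marker lists with at least 3 raised markers. Clusters that held markers of several types or high doublet scores (mixed, 20.5% of nuclei), and classes under 20 nuclei in any library, stayed out of the tests. Names were rebuilt here and can differ from the study's.

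UMI counts were summed per library and class and tested with edgeR 4.0.16 (TMM, quasi-likelihood, library as a block, or label set for sex) with Benjamini-Hochberg adjustment. DESeq2 1.42.0 was an alternative, beside other filters, scalings, clusterings and left-out libraries. Fits were checked on simulated data. The rule for names was all 10 listed genes in every comparison, and other family genes and partners where they passed or peaked; for one class against the others and for sex within classes the text names those called or highest and counts the rest. The genes and lists were chosen with earlier results of these data known. Levels are CPM, mean ± SD over libraries. Same-numbered pools were not treated as pairs. Their deviations from the sex means correlated at -0.783, 0.256 and -0.701. Numbers 1 and 3 cross the label sets, so these values cannot settle whether pools were paired. The gene whose class means were closest to those of Efna5 is not reported here.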

Additional observations from a re-analysis of the deposited data

Results flagged for a closer look

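Levels of 10 genes in 14 classes and over all nuclei gave 150 groups of 6 libraries, and in 10 of them 1 library stood far from the other 5 (its gap to the nearest, as a share of the range, above Dixon's critical value). Chance alone gives about 1 in 20.

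Female pool 3 was the high library in 6 of these groups. Epha5 stood at 156 CPM in its Drd3 granule-like nuclei (next library 52.2) and at 179 CPM in its oligodendrocyte-like nuclei (next 70.4). Epha6 stood at 159 CPM (next 72.8) and Epha7 at 142 CPM (next 60.7) in its astrocyte-like nuclei. In its oligodendrocyte-like nuclei Epha7 stood at 126 CPM (next 43.2) and Efna5 at 20.2 CPM (next 6.58). In the same library Pde10a was 182 CPM in astrocyte-like and 266 CPM in oligodendrocyte-like nuclei, the highest and second of the 6 libraries. Its part in these levels was not tested.

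Female pool 1 was the high library for Epha3 in D1 MSN-like nuclei (236 CPM, next 190) and in D2 MSN-like nuclei (323 CPM, next 252). Female pool 2 was the low library for Epha7 in cluster 10 (98.4 CPM, next 256), which holds 32 nuclei there. It was the high library for Efnb3 in oligodendrocyte-like nuclei (39.5 CPM, next 18.5), where it holds 89 nuclei and 645 CPM of Pde10a.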

How the results depend on the processing

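Over 118 results for the listed genes and their alternatives, 1745 of 1804 recomputed values kept their side of the threshold, 54 no longer passed and 3 newly passed. Values uncalled in both fits were not compared for direction. Where the main or the recomputed value passed, 2 turned direction. The 2 were Epha3 (log2 2.13) and Epha6 (1.67) in OPC-like against oligodendrocyte-like nuclei at Leiden resolution 0.5, where the OPC-like class also holds nuclei of a mixed cluster and 5 listed genes were called in place of 3. For other changes below, the cause was not tested.

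Counts over all genes moved further. For D1 MSN-like against D2 MSN-like, all genes counted, 1962 called became 1087 with DESeq2, 575 with the label set in place of the library block and 1291 under a 1% mitochondrial limit. For OPC-like against oligodendrocyte-like, all genes counted, 2128 became 1019 under that limit, with fewer genes tested, and 3346 with no low-count filter.

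For sex in all nuclei, 7 genes became 13 with DESeq2 and ran from 3 to 11 as each library was left out, and 0 listed genes passed throughout. For sex in each class, 0 listed genes became 1 with no low-count filter (Epha5 in Drd3 granule-like nuclei, log2 1.4, adjusted p = 0.00327 by edgeR) and ran from 0 to 4 as each library was left out. Over all genes the mean number called per class went from 6.93 to 24.9 with no filter and ran from 6 to 30.3 over left-out libraries. Over left-out libraries the 5 listed genes that differed by label set ran from 0 to 6, and for label set in all nuclei, all genes counted, 4992 called ran from 677 to 7204.

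With the replicate block in place of the label set, sex gave 0 listed genes over all nuclei and 0 in classes, and 3 and a mean of 3.36 over all genes. Numbers 1 and 3 join libraries of different label sets and number 2 joins 2 libraries of set B, so the block was not read as a pairing.

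Depth limits the rarest values: Ephb2 in D1 and D2 MSN-like nuclei and Efna5 in oligodendrocyte-like nuclei rest on few UMIs, and 11 of the 140 pairs could not be tested for sex.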

Other observations

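Cholinergic-like nuclei (258) had at least 20 nuclei in 4 libraries and entered no test. Over those 4 libraries Epha5 averaged 1128 ± 70.5 CPM and Ephb2 93.8 ± 17.8 CPM, while Ephb1 averaged 58.2 ± 13.2 CPM and Epha7 67.6 ± 44.9 CPM. Epha6 stood at 852 ± 47.6 CPM and Epha4 at 284 ± 78.2 CPM. The cholinergic-like means of Epha5 and Ephb2 lay above the highest means among the classes in the comparisons. Those were 1099 ± 140 CPM (Epha5, cluster 10) and 90.2 ± 30.6 CPM (Ephb2, OPC-like nuclei). The libraries overlapped for both genes, and neither difference was tested. Cholinergic neurons are the large interneurons that release acetylcholine in the striatum. High Epha5 and Ephb2 beside low Ephb1 was also the arrangement of Sst/Npy interneuron-like nuclei and cluster 10, with no test between them.

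Microglia-like nuclei (432, of which 8 in female pool 2) held 33.5 ± 39.3 CPM of Epha3, 107 ± 119 CPM of Epha5 and 69.9 ± 29.1 CPM of Ephb1 over the 5 other libraries, with female pool 3 the highest for each. Ephb2 was at 0 in 3 of those 5 libraries.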
